A study of Mus musculus with 6 samples.

Results

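The genes described here are 8 stress-response genes, Ier2, Ier3, Ier5, Ppp1r15a, Gadd45a, Gadd45b, Gadd45g and Rgcc, measured in single invariant natural killer T (iNKT) cells of the mouse. iNKT cells are T cells with a restricted receptor that recognises lipids presented by CD1d. The 8 genes were taken by symbol from the 27998 genes counted in every library. They were chosen by their differences between organs in earlier results of these same libraries, so those differences are given below as a description, without p-values, and calls of the 8 genes appear as counts beside the share of all genes called. All 6 libraries came from wild-type (WT) C57BL/6 mice aged 5 weeks, with 2 libraries each from liver, spleen and lymph node. Cells carrying CD8 or B220 were removed first, and TCRβ and CD1d-tetramer positive cells were then sorted. The study's methods call the 2 libraries of an organ biological repeats. The number of mice behind a library, their sex and any batch are not given in the sources used here, and the molecule is labelled nuclear RNA, a label that could not be checked.

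Immediate early response genes such as Ier2, Ier3 and Ier5 are transcribed within minutes of a stimulus and without new protein synthesis. Ppp1r15a encodes GADD34, which brings protein phosphatase 1 to phosphorylated eIF2alpha and so restores translation after stress. The Gadd45 proteins are small acidic proteins induced by growth arrest and DNA damage that bind the kinase MEKK4 (Map3k4) and cell cycle regulators, and in T cells Gadd45b and Gadd45g act in p38 signalling and interferon-gamma production. Rgcc, the regulator of cell cycle also called RGC-32, is known as a complement-induced and TGF-beta-induced protein that binds cyclin-dependent kinase 1.

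Each library was a 10x Genomics 3′ library in which unique molecular identifiers (UMIs), each standing for 1 captured RNA molecule, were counted. After filtering, the libraries held 2638 to 2861 cells, and 6 to 20 cell barcodes were shared by any pair of libraries. Depth differed between the organs, with a median of 2880 to 3592 UMIs per cell in liver and 1470 to 1730.5 in spleen and lymph node. The share of mitochondrial UMIs had medians of 2.73% to 2.79% in liver, 4.07% to 4.69% in spleen and 4.53% to 5.13% in lymph node. Cd3e, a chain of the T cell receptor complex, was detected in 67.2% to 75.6% of the cells and Zbtb16, which encodes the iNKT lineage factor PLZF, in 8.81% to 20.1%. Of 7 B cell markers, 1 to 7 were detected in a library, with a summed level of 2.499 to 22.1 CPM (UMIs of a gene in a library scaled to a total of 1000000). Xist was at 0 in lymph node and had 5401 to 10404 UMIs in each liver and spleen library, and Ddx3y, on the Y chromosome, was counted 676 and 746 times in lymph node and 0 times elsewhere. The lymph node libraries thus held RNA of male cells and the liver and spleen libraries RNA of female cells. Sex and organ cannot be told apart in any comparison with the lymph node below, and the parts of depth and mitochondrial share in the organ differences were not tested.

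All 8 genes code for proteins. In GENCODE vM21 (GRCm38), Ier2 is a single-exon gene on the minus strand at chr8:84661331-84662852 and Ier5 a single-exon gene on the minus strand at chr1:155096361-155099636. Ier3 has 2 exons at chr17:35821684-35822923 on the plus strand. Ppp1r15a has 2 exons at chr7:45522916-45526268 on the minus strand and is overlapped on the other strand by Tulp2. The 3 Gadd45 genes have 4 exons each and lie at chr6:67035096-67037457 (Gadd45a, minus), chr10:80930073-80932204 (Gadd45b, plus) and chr13:51846678-51848468 (Gadd45g, plus). Gadd45a is overlapped on the other strand by E230016M11Rik. Rgcc has 5 exons at chr14:79288756-79301645 on the minus strand.

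Promoters were read from RefSeq (GRCm38.p6), which held 7 of the 8 genes and not Ier2. The 250 bases before each start were searched on both strands for 7 motifs. They were the cyclic AMP response element TGACGTCA (CRE), the AP-1 site TGANTCA, the EGR site GCGNGGGCG, CCAAT, the TATA box TATAAA, the kappa B site and the CArG box. The full CRE does not match the AP-1 pattern searched, and no match in these promoters overlapped another. The 4 sequences below are shown because they belong to the genes with the largest difference from lymph node (Ppp1r15a, Gadd45b and Rgcc) and to the 1 gene that was not highest there (Ier3). Capitals mark motif matches. Each begins 150 bases before the RefSeq start and ends where the first GENCODE exon begins. They are Ppp1r15a at chr7:45526269-45526418 (minus strand), Gadd45b at chr10:80929941-80930072 (plus strand), Rgcc at chr14:79301646-79301785 (minus strand) and Ier3 at chr17:35821563-35821683 (plus strand).
Ppp1r15a: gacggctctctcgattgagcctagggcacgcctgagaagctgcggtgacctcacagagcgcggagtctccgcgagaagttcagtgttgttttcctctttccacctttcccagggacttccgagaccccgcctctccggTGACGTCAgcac
Gadd45b: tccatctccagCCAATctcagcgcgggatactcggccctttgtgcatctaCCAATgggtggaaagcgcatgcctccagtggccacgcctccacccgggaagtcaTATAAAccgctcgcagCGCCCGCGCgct
Rgcc: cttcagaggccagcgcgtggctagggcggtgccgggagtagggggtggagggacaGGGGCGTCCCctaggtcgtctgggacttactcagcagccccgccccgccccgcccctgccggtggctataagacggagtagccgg
Ier3: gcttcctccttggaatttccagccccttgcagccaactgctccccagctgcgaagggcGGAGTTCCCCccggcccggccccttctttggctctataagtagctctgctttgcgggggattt

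Ppp1r15a carried the full CRE, beginning 12 bases before its start, a motif held by 1.55% of the 32851 promoters of the table. None of the other 6 promoters held it. A kappa B site began 92 bases before the start of Ier3 and 95 bases before that of Rgcc, against 7.25% of all promoters. Gadd45b held an EGR site 30 bases before its start (4.70% of promoters) and a TATA box. Gadd45g also held a TATA box (12.4% of promoters). CCAAT was found in Ier3, Ier5, Gadd45a, Gadd45b and Gadd45g, against 33.8% of promoters. The AP-1 site and the CArG box were found in none of the 7 windows, which says only that these letters are not there. A match is a sequence feature and not evidence that a factor binds.

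Levels are given as CPM of the summed UMIs of a library after TMM scaling. A log2 difference is the organ named first minus the organ named next, from edgeR. Its standard error (SE) was derived, as the size of the difference over the square root of edgeR's F statistic. Since the sums are over all cells, fewer cells with a transcript and less transcript per cell cannot be told apart in them. Of the 8 genes, 7 were highest in both lymph node libraries, and Ier3 was highest in both liver libraries. By edgeR's adjusted p below 0.05, 7 of the 8 genes were lower in liver than in lymph node, beside 19.6% of the 10180 genes tested, and 1 was higher, beside 18.0%. Against lymph node, 7 were lower in spleen (10.3% of all genes) and 0 higher (7.99%). Against spleen, 6 were lower in liver (13.0%) and 1 higher (12.7%), but 3 were lower without TMM scaling, 3 with DESeq2 and 2 without spleen replicate 1. Without overlap of libraries, 7 genes lay lower in liver than in lymph node (34.5% of all genes) and 1 higher (35.6%), 7 lower in spleen than in lymph node (28.6%) and 0 higher (29.3%), and 6 lower in liver than in spleen (30.7%) and 2 higher (32.1%). Because these contrasts chose the genes, nothing is read from those counts. Library totals without TMM moved the median log2 difference of all genes for liver minus spleen from 0.02 to 0.1, and the higher share of calls from 49.4% to 62.8%. In iNKT1-like cells, described further on, that share moved from 51.3% to 64.8% for liver minus spleen and from 45.2% to 56.1% for liver minus lymph node. The sign of every member's difference was the same under both scalings. The plot of levels by library gives all 8 genes in all cells and in iNKT1-like cells.

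**Figure D1:**
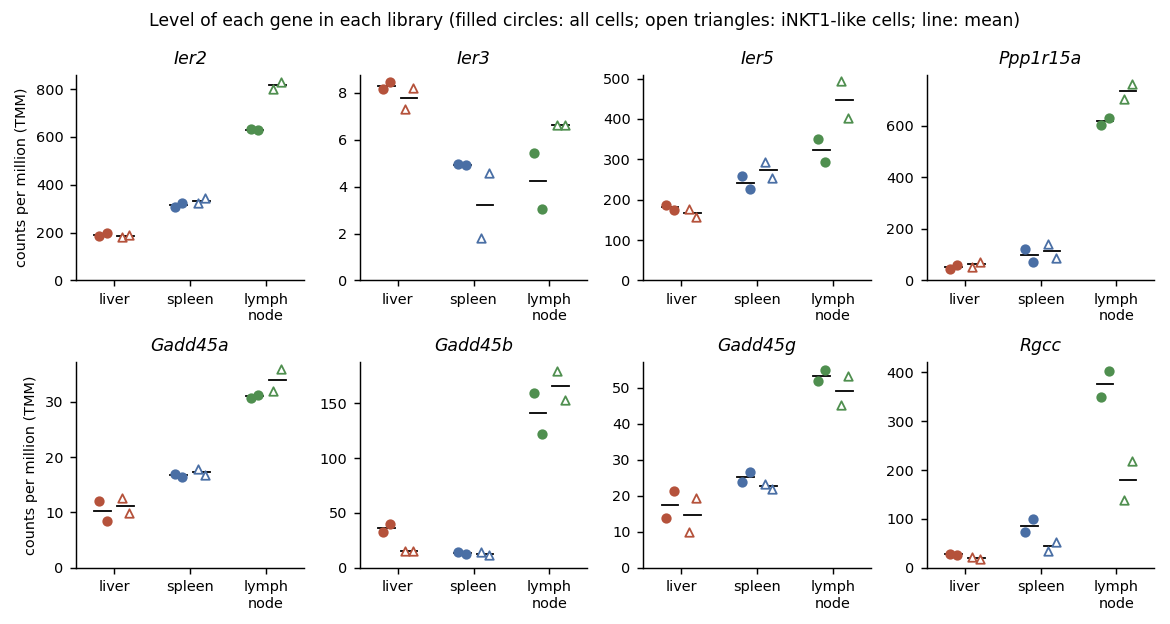
Level of each of the 8 genes in CPM after TMM scaling (y axes start at 0 and differ between panels) for the 2 libraries of liver, spleen and lymph node. Filled circles are all cells, open triangles iNKT1-like cells and lines the mean of the 2 libraries. Except for Ier3, the lymph node points lie above the liver and spleen points of the same set of cells. The liver points of Gadd45b lie above spleen in all cells (32.4 and 40.3 against 14.1 and 12.4 CPM) but close to it in iNKT1-like cells.

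Ppp1r15a, the eIF2alpha phosphatase subunit, stood at 45.6 and 61.4 CPM in liver, at 121.5 and 71.8 CPM in spleen and reached 603.7 and 629.8 CPM in lymph node. The lymph node libraries lay far above the others and did not overlap with them. Means of the 2 libraries were 53.5 ± 11.2 (SD, n = 2), 96.6 ± 35.2 and 617 ± 18.5 CPM in the same order. The log2 difference was -3.53 (SE 0.243) for liver minus lymph node, or 11.6-fold lower, and -2.67 (SE 0.237) for spleen minus lymph node, or 6.36-fold lower. From the bottom, these differences ranked 109 and 121 among the 10180 genes tested. The 2 spleen libraries differed from each other by more than the liver libraries did. Without spleen replicate 1 the liver minus spleen difference was -0.43, against -0.86 (SE 0.246) with both.

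Rgcc, the cell cycle regulator, had 28.7 and 25.8 CPM in liver, 72.1 and 99.0 CPM in spleen, and 349.8 and 402.6 CPM in lymph node. The 3 organs were fully separated, in the order liver, spleen, lymph node. Means were 27.3 ± 2.01, 85.5 ± 19.0 and 376 ± 37.3 CPM (SD, n = 2). Its log2 difference was -3.78 (SE 0.145) for liver minus lymph node, a 13.8-fold lower level and over all cells the largest of the 8 genes. It was -2.14 (SE 0.135) for spleen minus lymph node and -1.64 (SE 0.149) for liver minus spleen.

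Among the Gadd45 genes, Gadd45b had 32.4 and 40.3 CPM in liver, 14.1 and 12.4 CPM in spleen, and 159.5 and 122.0 CPM in lymph node. It was the 1 gene of the 8 lowest in spleen with all 3 organs separated. Its level in spleen was 10.6-fold below lymph node (log2 difference -3.40, SE 0.179, rank 71 from the bottom) and in liver 3.88-fold below (-1.96, SE 0.145). Liver stood 2.72-fold above spleen (1.44, SE 0.192).

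Gadd45a and Gadd45g differed less between organs than Gadd45b and stood above it in spleen. Gadd45a had 12.1 and 8.45 CPM in liver, 17.0 and 16.5 CPM in spleen, and 30.8 and 31.2 CPM in lymph node, from 52 to 113 UMIs per library. Gadd45g had 13.7 and 21.3 CPM in liver, 23.8 and 26.6 CPM in spleen, and 51.8 and 54.9 CPM in lymph node. Both were lowest in liver and highest in lymph node, with no overlap between organs, though for Gadd45g the second liver library came close to spleen. The difference from lymph node was -1.58 (SE 0.207) in liver and -0.89 (SE 0.211) in spleen for Gadd45a, and -1.62 (SE 0.179) and -1.08 (SE 0.184) for Gadd45g. The Gadd45g difference between liver and spleen was -0.54 (SE 0.196), and it was -0.24 (SE 0.206) without liver replicate 1.

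Ier2, a nuclear immediate early protein, had 183.5 and 196.3 CPM in liver, 305.0 and 322.6 CPM in spleen, and 631.0 and 627.1 CPM in lymph node. Its replicates agreed within 12.5 CPM (SD) in every organ. The steps between organs were of similar size, with -0.72 (SE 0.115) for liver minus spleen and -1.0 (SE 0.114) for spleen minus lymph node. Ier5, which links HSF1 to the phosphatase PP2A, showed a shallower gradient of 186.6 and 175.1, 258.5 and 226.0, and 350.9 and 294.1 CPM in the same order. Its differences of -0.42 (SE 0.119) and -0.41 (SE 0.119) were the smallest of the 7 genes that were highest in lymph node.

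Ier3, a short-lived protein known from NF-kappa B and apoptosis studies, was rare, with its highest level in liver. It had 8.18 and 8.45 CPM in liver, 4.97 and 4.92 CPM in spleen, and 5.45 and 3.04 CPM in lymph node, from 11 to 61 UMIs per library. The liver libraries lay above all others, while spleen and lymph node overlapped. The liver minus lymph node difference was 0.96 (SE 0.334), and it was no longer called with DESeq2 or without liver replicate 1 (0.98, SE 0.402), liver replicate 2 (0.93, SE 0.392) or lymph node replicate 2 (0.61, SE 0.396). The liver minus spleen difference was 0.75 (SE 0.325) and was not called. Between spleen and lymph node it was 0.22 (SE 0.393), and it was -0.15 without lymph node replicate 2.

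Cells were clustered without the 8 genes and named from markers. The iNKT1-like cells, named from 10 markers that include Tbx21, Il2rb and NK receptor genes, were then compared alone. A library of liver or spleen held 1811 to 2072 of them, while lymph node held 649 and 734. They came mostly from cluster 1 in liver, cluster 0 in spleen and part 2a of cluster 2 in lymph node, so that different clusters stand for the class in each organ. Cluster 2 as a whole had low iNKT1 markers (median log2 fold of -0.959 against the other cells), and part 2a was named by a second split against the rest of cluster 2 (0.88). The matching parts stayed unnamed at Leiden resolution 1.0 and without regression. Without regression, most lymph node cells of the class came from a different part (164 and 170 cells). Its leading genes included Tox2, Lag3 and Cd83, and 6 iNKT1 and 6 iNKT2 markers were higher in it. Immediate early genes such as Dusp1 and Nr4a1 and the Y-linked genes Eif2s3y and Ddx3y were among the leading genes of cluster 2, of whose 2871 cells 1373 and 1382 were from the lymph node libraries. In this class edgeR called 7 of the 8 genes lower in liver than in lymph node, beside 12.3% of the 9234 genes tested (10.2% higher, 22.5% either way), and 7 lower in spleen, beside 5.35% (3.27% higher, 8.62% either way). It called 5 lower and 1 higher in liver than in spleen, beside 11.2% and 11.8%, or 23.0% either way. Without overlap of libraries, 7 genes lay lower (29.4% of all genes) and 1 higher (30.9%) in liver than in lymph node, 8 lower (24.7%) and 0 higher (25.7%) in spleen than in lymph node, and 6 lower (29.4%) and 2 higher (32.2%) in liver than in spleen. The class contrasts belong to the same libraries that chose the genes, so nothing is read from these counts either. The 7 genes called lower in spleen were 4 when cells were clustered without regression, at Leiden resolution 1.0, or without the part of the class from cluster 2, where Ier5, Gadd45a and Gadd45g were not called. The 7 called lower in liver than in lymph node were 6, 5 and 5 under the same alternatives, with Gadd45a lost in each and Gadd45g in the latter pair.

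In iNKT1-like cells Gadd45b had 15.4 and 15.1 CPM in liver, 14.6 and 11.2 CPM in spleen, and 179.5 and 152.9 CPM in lymph node. Liver and spleen were thus close, with a difference of 0.23 (SE 0.251), and both lay more than 3 log2 units below lymph node (-3.44, SE 0.188, and -3.67, SE 0.216). Ppp1r15a kept a similar difference in this class, at -3.58 (SE 0.177) for liver and -2.66 (SE 0.175) for spleen against lymph node. Rgcc was at 138.3 and 219.4 CPM in lymph node iNKT1-like cells, under its level over all lymph node cells, and its difference from lymph node was -3.12 (SE 0.198) in liver and -2.04 (SE 0.197) in spleen. In this class the liver minus lymph node differences of Ppp1r15a and Gadd45b were thus larger than that of Rgcc. The difference of Ier5 from lymph node was larger in this class than over all cells, at -1.42 (SE 0.133) for liver and -0.71 (SE 0.133) for spleen. Ier3 had 4 to 37 UMIs per library here, and its difference of 0.21 (SE 0.521) between liver and lymph node was within its error.

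Cluster 2 was left out in alternatives chosen after seeing the data. Over all cells without it, the spleen minus lymph node difference of Ier5 was -0.08 (SE 0.121), against -0.41 with it, and that of Ier2 was -0.66 (SE 0.116), against -1.0. Ppp1r15a and Rgcc were at -2.57 (SE 0.235) and -2.44 (SE 0.135) without cluster 2, close to or beyond their values with it. With part 2a left out of the iNKT1-like class, Gadd45a and Gadd45g were at -0.85 (SE 0.674) and -0.70 (SE 0.617) for spleen minus lymph node, against -0.96 (SE 0.305) and -1.12 (SE 0.275) with it, and Ier5 was at -0.32 (SE 0.206), against -0.71.

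A large share of the liver Gadd45b lay in NF-kB-like cells, named for Nfkbia, Nfkb1, Nfkb2, Rel, Relb and related targets. These made up 8.68% and 11.7% of liver cells, but held 51.7% and 51.6% of all Gadd45b UMIs of the liver libraries. In spleen they made up 1.76% and 1.24% of the cells and held 14.8% and 27.9% of the Gadd45b UMIs. Within NF-kB-like cells Gadd45b had 140.4 to 149.5 CPM in liver and 89.3 to 219.0 CPM in spleen, the latter from 20 UMIs in all, and the organs overlapped. With NF-kB-like cells left out, the liver minus spleen difference over all cells was 0.91 (SE 0.222), against 1.44 with them. Gadd45b was also higher in both liver libraries than in both spleen libraries within Gzma-like cells (20.5 and 36.5 against 0 and 0 CPM), Ifit-like cells (41.0 and 84.1 against 0 and 12.1 CPM), RTE-like cells (14.4 and 24.2 against 2.29 and 4.91 CPM) and cycling cells (29.0 and 41.8 against 9.32 and 18.1 CPM), from 38 UMIs or fewer per class and organ. In iNKT17-like cells liver (13.4 and 64.0 CPM) and spleen (18.0 and 47.3 CPM) overlapped. The other 7 genes had 6.67% to 21.3% of their liver UMIs in NF-kB-like cells. NF-kB-like cells held 11.8% and 14.9% of all liver UMIs. Ppp1r15a (7.35% and 9.79%), Rgcc (10.7% and 12.6%) and Ier3 (11.5% and 11.5%, from 13 UMIs) had less than that share in these cells in both libraries.

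To compare how many cells carried a transcript, every cell was thinned to 1000 UMIs, and 0 to 488 shallower cells per library were left out. At this depth Ppp1r15a was found in 3.14% and 4.31% of liver cells, 9.13% and 5.35% of spleen cells, and 33.6% and 35.8% of lymph node cells. Rgcc was found in 1.39% and 1.58%, 4.29% and 5.27%, and 20.0% and 24.5% of the cells in the same order. Gadd45b was lowest in spleen, with 0.851% and 0.805% of the cells, next in liver with 1.61% and 2.03%, and highest in lymph node with 10.6% and 8.18%. Ier2 was in 35.7% and 35.0% of lymph node cells and in 11.1% and 12.5% of liver cells, and Ier5 in 23.0% and 19.2% against 11.6% and 11.7%. Without thinning, the deeper liver cells had higher shares, 11.1% and 12.2% for Ppp1r15a and 35.3% and 29.4% for Ier5, the latter overlapping with the 35.6% and 28.5% of lymph node.

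No class of these cells is known to lack the 8 genes, so the iNKT17 gene Ccr6 served to gauge free RNA. At the same depth, Ccr6 was found in 0% to 0.568% of iNKT1-like cells and in 3.12% to 20.2% of iNKT17-like cells, with library medians of 1325.5 to 3537.5 UMIs in the former and 1731.5 to 5891 in the latter. In liver and spleen, iNKT17-like cells were at most 1.76% of the cells, so little free Ccr6 RNA could arise there and the gauge holds for lymph node alone. It also does not bound the free RNA of more abundant genes, and how much of the members' shares came from free RNA was not tested. Ier3 was found in 0.464% and 0.631% of liver cells, 0.155% and 0.362% of spleen cells and 0.421% and 0.127% of lymph node cells. Its lymph node shares were under the gauge. In liver and spleen, which the gauge does not cover, only 4 to 18 cells of a library held an Ier3 UMI. The shares of Ier3 are therefore not read as expression.

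Most of the difference lay in the number of cells with a UMI and less in the UMIs of such a cell. The share of cells with Ppp1r15a was 9.32 times as high in lymph node as in liver, while the UMIs per cell with a UMI were 1.39-fold higher. For Rgcc the factors were 15.0 and 1.24, for Gadd45b 5.16 and 1.14, and for Ier2 3.00 and 1.25. At 1000 UMIs per cell a transcript of this level gives mostly 0 or 1 UMI, so a rise within cells also shows largely as a rise in the share.

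Counting the 8 genes together, 72.5% and 70.6% of liver cells, 56.2% and 58.1% of spleen cells, and 24.8% and 23.6% of lymph node cells had none of them at 1000 UMIs. Cells with 3 or more made up 0.179% and 0.526%, 1.28% and 0.603%, and 12.3% and 12.1%. The mean was 0.311 to 0.346 genes per cell in liver, 0.507 to 0.555 in spleen and 1.29 in both lymph node libraries.

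**Figure D2:**
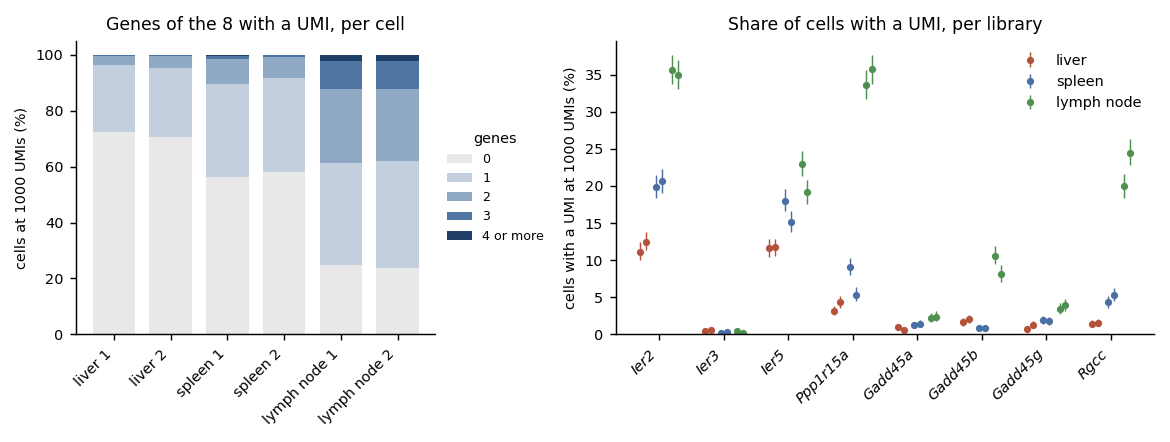
Left, percent of cells of each library (cells thinned to 1000 UMIs) with a UMI of 0, 1, 2, 3 or 4 or more of the 8 genes. Right, percent of cells with a UMI of each gene in each library, with 95% binomial (Clopper-Pearson) intervals that cover counting error only. In the lymph node libraries 12.3% and 12.1% of cells had 3 or more of the genes, against at most 1.28% elsewhere.

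Pairs of the genes in the same cell were compared with the number of cells that their separate shares imply. In the lymph node libraries the ratio of observed to implied cells had a median of 1.10 in both, over 20 and 19 pairs of genes with at least 5 implied cells, and was above 1 in 13 and 15 of them. The medians were 0.881 and 1.39 in liver, over 5 and 7 pairs, and 1.14 and 0.933 in spleen, over 10 pairs each. Ier2 and Ppp1r15a were together more often than implied in all 6 libraries (ratios of 1.02 to 1.43), and Ier2 and Gadd45b in 4 of 4 (1.21 to 2.34). Ier5 and Rgcc were under 1 in 5 of 5 libraries (0.705 to 0.999), while the first liver library, under the minimum of 5 implied cells, had 10 cells with both against 4.53 implied. These ratios pool classes that differ in level. Within iNKT1-like cells Ier2 and Ppp1r15a were under 1 in the second spleen (0.936) and second lymph node library (0.939), and within lymph node iNKT17-like cells Ier5 and Rgcc were above 1 (1.03 and 1.05). In counts this sparse these ratios are a description and no test was made.

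Levels also differed between cell classes of the same organ. The class values are CPM without TMM scaling. The lower of the 2 libraries is given first. They rest on libraries with at least 20 cells of the class and are descriptions, because clusters were made from the same cells. Rgcc was highest in iNKT17-like cells, at 580.4 and 596.0 CPM in lymph node, and next in iNKT2-like cells at 384.4 and 497.7 CPM. The iNKT2-like class depends on the clustering, since no cells were given that name at Leiden resolution 1.0 or without regression. Lymph node recent thymic emigrant-like (RTE-like) cells at 213.5 and 321.0 CPM and Ifit-like cells at 209.2 and 280.2 CPM overlapped, as did iNKT1-like cells at 134.5 and 216.3 CPM with both. In spleen it was also highest in iNKT17-like cells, with 248.5 and 414.2 CPM, against 135.6 and 164.8 CPM in RTE-like and 35.1 and 49.9 CPM in iNKT1-like cells. RTE-like cells were 19.9% and 18.1% of the cells of the spleen libraries and held 50% and 42.1% of their Rgcc UMIs, beside 26.3% and 24.3% of all their UMIs. In lymph node 60.0% and 54.7% of the Rgcc UMIs lay in iNKT17-like cells, which were 32.6% and 35.2% of the cells there, with 34.7% and 37.8% of all UMIs, and at most 1.76% of the cells in the other organs.

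Ppp1r15a was high in most lymph node classes. It had 682.7 and 751.2 CPM in iNKT1-like, 640.0 and 640.8 CPM in iNKT17-like, 709.0 and 784.5 CPM in Ifit-like and 432.6 and 672.6 CPM in RTE-like cells, which overlapped with each other in part. The iNKT2-like cells, at 464.2 and 465.1 CPM, lay within the RTE-like range and below the other 3 classes, and cycling cells were lowest at 177.0 and 186.8 CPM. In cycling cells the gene was also low in liver (23.2 and 23.6 CPM) and spleen (12.1 and 51.3 CPM). Every class with 2 libraries in each organ (iNKT1-like, iNKT17-like, RTE-like, Ifit-like and cycling) had both lymph node libraries above all libraries of liver and spleen. The RTE-like class is made of cluster 10 and cluster 4 in lymph node and nearly all of cluster 4 in the other organs. Within cluster 4 alone, Ppp1r15a had 264.3 and 574.6 CPM in lymph node, 50.8 and 61.4 CPM in liver and 89.8 and 51.6 CPM in spleen, so the lymph node libraries were also higher there.

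Of the named classes with 2 lymph node libraries, Gadd45b had 174.1 and 228.9 CPM in iNKT2-like cells, 150.8 and 174.6 CPM in iNKT1-like cells and 112.1 and 162.7 CPM in Ifit-like cells, each overlapping with the next. Cycling cells at 98.8 and 115.0 CPM and iNKT17-like cells at 83.6 and 126.9 CPM also overlapped, and RTE-like cells had 33.7 and 76.4 CPM. Lymph node RTE-like cells came mostly from cluster 10 (80 and 78 cells, with Gadd45b at 12.0 and 55.8 CPM) and less from cluster 4 (51 and 41 cells, 52.9 and 101.4 CPM), while those of liver and spleen were nearly all from cluster 4. Spleen RTE-like cells had 2.29 and 4.91 CPM, from 7 UMIs in all. Ier2 was higher in lymph node iNKT2-like (735.1 and 856.7 CPM) and iNKT1-like cells (779.7 and 816.7 CPM) than in iNKT17-like cells (462.5 and 487.6 CPM). Ier5 had 280.1 and 361.3, 397.2 and 479.7, and 228.4 and 245.3 CPM in these classes. In liver, Gadd45g had 43.2 and 44.5 CPM in Gzma-like cells and 36.8 and 82.0 CPM in Ifit-like cells, against 10.4 and 19.6 CPM in liver iNKT1-like cells. Gadd45a and Ier3 had too few UMIs in most classes to be ordered.

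**Figure D3:**
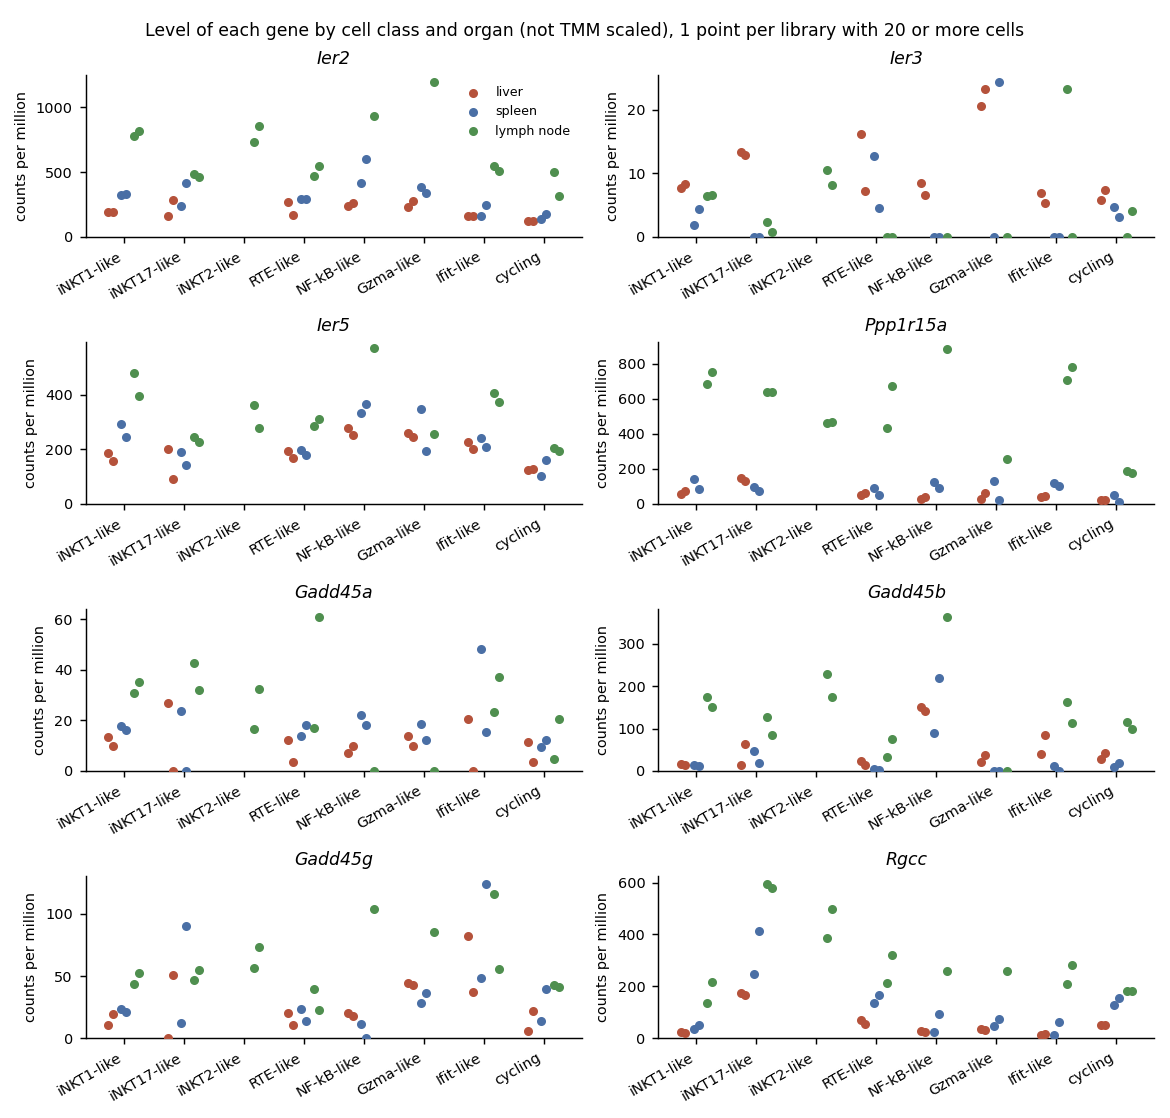
Level of each gene in CPM (linear axes from 0, not TMM scaled) by cell class, with 1 point per library that held at least 20 cells of the class and organs in colour. Lymph node points lie on top for Ppp1r15a in every class, Rgcc peaks in iNKT17-like cells (580.4 and 596.0 CPM in lymph node), and Gadd45b in liver peaks in NF-kB-like cells.

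Genes were ranked by how alike their pattern was to that of each member, by Pearson's correlation of log2 CPM over 33 sums of at least 50 cells of a class in a library, among 5857 genes with a mean of at least 20 CPM. The sums share 6 libraries, and with them organ and depth, so the values are descriptions. The most alike to Ppp1r15a were Junb (r = 0.953), Jun (0.936) and Fos (0.929), all subunits of AP-1. Ier2 was most like Ftl1 (0.927), Jund (0.921) and Junb (0.920), and Ier5 most like Btg1 (0.807), Nfkbia (0.789) and Junb (0.788). Gadd45b was most like Mid1 (0.890), the orphan receptor gene Nr4a1 (0.828) and the co-chaperone gene Dnajb1 (0.817). Rgcc went with another set, Capg (0.894), Timp2 (0.882) and Lgals3 (0.868). Gadd45a was nearest to Bbc3 (0.769), which encodes the p53 target PUMA, Gadd45g to Capza2 (0.706) and Ier3 to Pabpn1 (0.694). Among the members, Ier2 and Ppp1r15a were the most alike (0.84) and Ier3 and Ppp1r15a the least (-0.30). The 3 Gadd45 genes were less alike to each other (0.11 to 0.35) than Gadd45a was to Ppp1r15a (0.64). The minimum of 20 CPM was not asked of the members. Ier3 averaged 4.2 to 8.3 CPM in an organ. Gadd45a was under 20 CPM in liver and spleen (10.3 and 16.7 CPM), Gadd45b in spleen (13.3 CPM) and Gadd45g in liver (17.5 CPM). Many of their sums held few UMIs, so low correlations of these genes are not read as different patterns.

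The pathways around the members were followed with 10 lists, none of which holds a member. Counts are genes with an edgeR adjusted p below 0.05 over all genes tested, beside 37.6% of all genes called for liver against lymph node, 18.3% for spleen against lymph node and 25.7% for liver against spleen. The lists were chosen with earlier results known. Apart from genes named for a direct role beside a member, those given with values were the called genes with the largest differences of their list. A list's share and the p-values of its named genes are therefore descriptions and not independent tests.

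The immediate early transcription factors were mostly lower in liver and spleen than in lymph node. Of 16 tested, 13 were lower in liver and 14 lower in spleen than in lymph node, with 0 higher in either, and the median log2 difference was -2.37 and -2.17 against about 0 over all genes. Between liver and spleen the list was mixed, with 4 lower in liver (Fos, Junb, Jund and Nr4a2), 1 higher (Klf6), 11 not called and a median of -0.12. Fos had 12.3 and 8.29 CPM in liver, 26.4 and 22.9 CPM in spleen and reached 563.6 and 583.4 CPM in lymph node. Its differences were -5.78 (SE 0.157, edgeR adjusted p = 2.45e-24) and -4.54 (SE 0.15, 1.15e-21). Klf4 fell alike, at -5.21 (SE 0.229, edgeR adjusted p = 1.18e-18) in liver and -4.61 (SE 0.243, 3.07e-16) in spleen. Atf3 had 37 and 43 UMIs in lymph node, 4 and 1 in liver and 0 in both spleen libraries. Nr4a2 had 41 and 47 UMIs in lymph node, 1 and 0 in liver and 4 and 2 in spleen.

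Of 18 immediate early feedback genes, 12 were lower in liver than in lymph node and 2 higher, and 13 were lower in spleen and 1 higher. Between liver and spleen 6 were higher in liver (Dusp2, Dusp4, Dusp6, Socs1, Socs3 and Cd69), 3 lower (Dusp1, Btg1 and Spry2) and 9 not called. Dusp1, a MAP kinase phosphatase, had 71.1 and 52.0 CPM in liver, 140.9 and 114.3 CPM in spleen, and 1005 and 1124 CPM in lymph node (-4.11, SE 0.15, edgeR adjusted p = 2.01e-18, for liver). Tnfaip3, which encodes the NF-kappa B inhibitor A20, was at -2.46 in both liver (SE 0.136, edgeR adjusted p = 4.62e-16) and spleen (SE 0.146, 5.46e-15). Dusp4 had 46 and 27 UMIs in lymph node, 8 and 2 in liver and 0 in spleen. Spry1 was at -2.93 (SE 0.536, edgeR adjusted p = 4.86e-05) in liver against lymph node, from 5 and 4 against 19 and 19 UMIs.

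The partners of Ppp1r15a in the eIF2alpha cycle were mixed in direction. Of 16 genes, 4 were higher and 3 lower in liver than in lymph node, and 0 were higher and 1 lower in spleen. The 3 lower genes were Ppp1cb and Ppp1cc, which encode catalytic subunits of protein phosphatase 1, and Eif2s2, and Ppp1cb was the gene lower in spleen. Ppp1r15b, which encodes the constitutive counterpart of GADD34, had 30.6 and 32.8 CPM in liver, 25.6 and 25.2 CPM in spleen, and 17.7 and 22.4 CPM in lymph node. It was 0.66 higher in liver than in lymph node (SE 0.181, edgeR adjusted p = 0.00415), the opposite direction to Ppp1r15a. Eif2ak3, the endoplasmic reticulum kinase PERK, was 1.32 higher in liver (SE 0.283, 0.000496). Ppp1cb was lower in liver (-0.58, SE 0.113, 0.000114) and in spleen (-0.39, SE 0.115, 0.0152).

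Of 13 ATF4 and CHOP targets and factors tested, 3 were lower in liver than in lymph node, 4 lower in spleen and 0 higher in either. Atf4 was at 100.8 and 98.0 CPM in liver and 108.0 and 86.7 CPM in lymph node (0.03, SE 0.128, edgeR adjusted p = 0.870), and at 64.6 and 54.4 CPM in spleen, 0.71 below lymph node on the log2 scale (-0.71, SE 0.139, 0.000269). Ddit3, which encodes CHOP, had 58.6 and 61.6 CPM in liver, 76.3 and 72.1 CPM in spleen and 98.2 and 90.3 CPM in lymph node. Cebpb, also an immediate early gene, had the largest difference of the list (-2.18, SE 0.123, 6.69e-16, for liver). Of 17 endoplasmic reticulum chaperones and unfolded protein response genes, 5 were higher and 4 lower in liver than in lymph node, and 0 higher and 1 lower in spleen. The co-chaperone Dnajb9 was the gene lower in spleen (-1.47, SE 0.142, 8.15e-10), and the lectin chaperone Calr was higher in liver than in lymph node (1.12, SE 0.131, 6.74e-08).

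Of 19 p53 targets, 6 were lower and 2 higher in liver than in lymph node, and 5 lower and 1 higher in spleen. Cdkn1a, the inhibitor of cyclin-dependent kinases p21, had 4.56 and 3.41 CPM in liver, 2.61 and 0.289 CPM in spleen, and 59.7 and 49.4 CPM in lymph node. It was higher in liver than in spleen (1.40, SE 0.489, edgeR adjusted p = 0.0354), the direction of Gadd45b, and the second spleen library held 1 of its UMIs. Plk2 was at -4.19 (SE 0.434, edgeR adjusted p = 1.84e-09) and Plk3 at -1.21 (SE 0.180, 2.20e-06) in liver against lymph node. The list's median was -0.14 in that contrast.

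Of 16 GADD45 partners, stress MAP kinases and cell cycle genes, 5 were higher and 3 lower in liver than in lymph node, and 2 higher and 1 lower in spleen. Map3k4, the kinase that Gadd45 proteins activate, had 21.3 and 19.0 CPM in liver, 20.7 and 22.9 CPM in spleen and 12.0 and 14.9 CPM in lymph node, and was higher in both liver (0.59, SE 0.211, edgeR adjusted p = 0.0275) and spleen (0.69, SE 0.223, 0.0263). Mapkapk2, a p38 substrate, was 1.29 higher in liver than in lymph node (SE 0.22, 1.79e-05).

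Heat shock genes, the HSF1 programme to which Ier5 is linked, were mixed in direction between liver and lymph node. The list also holds heat shock factors and PP2A subunit genes. Of its 17 genes tested, 4 were higher and 7 lower in liver than in lymph node, and 0 higher and 8 lower in spleen. Hsf2, Ppp2ca, Ppp2r2a and Ppp2r2d were among the 7 lower in liver, and Hsf2, Ppp2ca and Ppp2r2d among the 8 lower in spleen. Between liver and spleen 8 were higher in liver, among them Hspa1a, Hspa1b and Hspa8, 1 was lower (Hsf2) and 8 were not called. Hspa1a was counted 230 and 235 times in liver, 2 and 1 times in spleen and 170 and 172 times in lymph node. Hspa1b was counted 289 and 255, 7 and 0, and 143 and 92 times. Hsf1 itself was at 24.8 and 20.6, 24.0 and 20.8, and 21.0 and 18.8 CPM (edgeR adjusted p of 0.442 to 0.954). The PP2A catalytic subunit gene Ppp2ca was lower in liver (-1.31, SE 0.163, 1.41e-05) and spleen (-1.39, SE 0.168, 2.19e-05) than in lymph node.

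Of 18 NF-kappa B feedback genes and targets, 4 were higher and 6 lower in liver than in lymph node, and 2 higher and 7 lower in spleen. Nfkbia, which encodes the inhibitor of NF-kappa B, was at -1.32 (SE 0.122, edgeR adjusted p = 1.51e-10) in liver and -1.06 (SE 0.122, 3.65e-08) in spleen. Irf8 was higher in liver than in spleen (2.17, SE 0.173, 5.41e-11), as Gadd45b was, and is itself a marker of the NF-kB-like class. Of 11 TGF-beta and SMAD genes, a pathway known to induce Rgcc, 3 were lower and 2 higher in liver than in lymph node, and 3 lower and 1 higher in spleen. Skil, a feedback inhibitor of the pathway, was lower in liver (-2.12, SE 0.143, 6.06e-14) and spleen (-1.91, SE 0.151, 6.62e-12), and the receptor gene Tgfbr2 was higher in liver (0.79, SE 0.146, 5.38e-05).

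**Figure D4:**
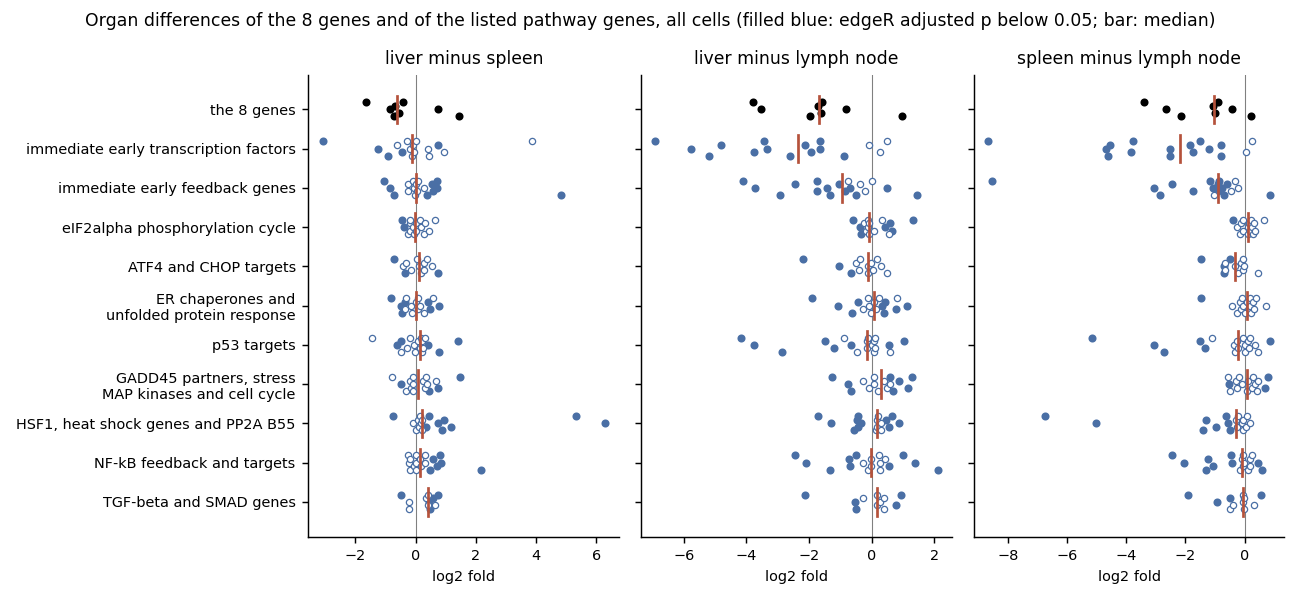
Log2 difference between organs (x axes, all cells) of the 8 genes in black and of every tested gene of the 10 lists in blue, filled where edgeR's adjusted p was below 0.05, with a bar at each median. The immediate early transcription factors have medians of -2.37 and -2.17 against lymph node, and the other lists except the feedback genes have medians between -0.34 and 0.30 there. Atf3 and Dusp4 had 0 UMIs in both spleen libraries, so their plotted spleen values depend on the prior count.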

How the data were processed

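Per the labels and methods, libraries were prepared with the 10x Genomics 3′ v2 chemistry, and the authors used Cell Ranger 3.1.0 with mm10. The deposited matrices hold raw counts of UMIs per gene and cell barcode. The version of their gene annotation is not given in the sources used here, and locations were taken from GENCODE vM21 by Ensembl identifier (27722 genes, 99.01%). Of 16587 barcodes, 55 were removed because they had under 300 genes, over 4000 genes or a mitochondrial share above 15%. Ribosomal, ribosomal RNA and haemoglobin genes were set aside (183 genes with 23.5% to 34.7% of a library's UMIs). Cells were clustered with scanpy 1.11.5 and leidenalg 0.10.2 (UMI count and mitochondrial share regressed out, 3000 variable genes without the members, 20 components, resolution 0.5) and named from marker lists. These class names are therefore not those the authors assigned. The marker symbols Pclaf, Trbc1 and Trbc2 and the list gene Selenos had no match in the files, and of 9 myeloid markers 8 had a match. UMIs were summed per library and compared between organs with edgeR 4.0.16 (TMM, filterByExpr with a minimum count of 10, quasi-likelihood F-test, Benjamini-Hochberg over all genes tested), with all 6 libraries in 1 fit and organ as its term. No doublets were removed, and an alternative left out the 2% of cells with the highest Scrublet scores (331 cells), a fixed share that is no doublet rate. Binomial intervals are at 95%. Total UMIs per library ran from 4768016 to 11086603, which sets the counting error. The p-values rest on an estimate of the spread between libraries for each gene, with 2 libraries per organ. That estimate is shared by the organs and moderated across genes, so it is not the spread of the compared organs alone. Named genes were the members, the 3 genes most alike to each, up to 4 called genes with the largest difference per list, and Ppp1r15b, Atf4, Ddit3, Cdkn1a, Map3k4, Hsf1, Fos and Nfkbia. Members and lists were chosen with earlier results of these data known. Alternatives included DESeq2 1.42.0, other scaling, filters and depth, a replicate block, leaving out each library, and other class definitions.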

Additional observations from a re-analysis of the deposited data

Results flagged for a closer look

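Gadd45g went in opposite directions in liver and spleen in 2 pairs of classes, with no overlap between the libraries of each class. In Gzma-like cells its mean was 43.8 CPM in liver and 32.3 CPM in spleen, a difference of 11.5 CPM resting on 26 and 6 UMIs, and in NF-kB-like cells 18.9 and 5.58 CPM, a difference of 13.4 CPM resting on 33 and 1 UMIs. In iNKT1-like cells it was 15.0 CPM in liver and 22.1 CPM in spleen (-7.11 CPM). These pairs came from a scan of the 8 genes over all organ contrasts and pairs of classes with enough cells. Over all cells, 32.1% of all genes tested lay higher in liver than in spleen without overlap, and 30.7% lower. The difference between the classes was not tested, and nothing is read from it.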

How the results depend on the processing

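Of 720 values of the members' differences under the alternatives, none that was past the threshold turned its direction, and the others that changed sign were all of Ier3. Of the 128 values of liver minus spleen over all cells, 22 lost the call, mainly of Ppp1r15a, Gadd45a and Gadd45g, and of the 112 values of spleen minus lymph node in iNKT1-like cells 16 lost it, of Ier5, Gadd45a and Gadd45g. Of 2016 values of the other named genes, 110 lost the call, 20 gained it and 10 that were not called changed sign by over 1 SE, and of 480 counts over the lists 38 moved by over 1.5 times. Map3k4 lost the call against lymph node under 4 alternatives in liver and 5 in spleen, Cdkn1a between liver and spleen under 4, Ppp1cb in spleen under 3 and Ppp1r15b in liver under 1. The counts of genes called over all genes also moved. With DESeq2 they were 1422 (liver minus spleen, against 2614) and 1126 (spleen minus lymph node, against 1863) over all cells. In iNKT1-like cells DESeq2 gave 1112 (liver minus lymph node, against 2079), 793 (liver minus spleen, against 2125) and 393 (spleen minus lymph node, against 796). At Leiden resolution 1.0 iNKT1-like cells gave 466 and 156 for the contrasts of liver and of spleen with lymph node, without the part from cluster 2 they gave 458 and 151, and with the whole of cluster 2 they gave 3192 and 1507, where fewer or more lymph node cells entered. Leaving out 1 library gave 2410 to 4038 (liver minus lymph node), 1362 to 2408 (liver minus spleen) and 1024 to 1920 (spleen minus lymph node) over all cells, and 1075 to 2105, 1041 to 2191 and 442 to 796 in iNKT1-like cells. The lowest counts were without lymph node replicate 2 in the contrasts with lymph node, and without liver replicate 1 (1362, all cells) or spleen replicate 2 (1041, iNKT1-like) between liver and spleen. Same-numbered libraries deviated together only weakly (correlations of 0.0678 to 0.0854, all positive), and whether they form pairs was not tested. A fit with the replicate block called more genes than the main fit in every contrast. It called 3034, 4141 and 2112 genes over all cells (liver minus spleen, liver minus lymph node, spleen minus lymph node). In iNKT1-like cells it called 2493, 2304 and 974. With the block, Ppp1r15a between liver and spleen was at -0.86 with an SE of 0.351 and was no longer called. Ier3 in iNKT1-like cells rested on 0 lymph node UMIs when cells were clustered without regression, and no fold is given there. Shares of cells kept lymph node highest for the same 7 genes at 500 and 1500 UMIs per cell, and for 6 without thinning, where Ier5 was not. Depth limits Ier3, with 11 to 61 UMIs per library, and the spleen values of Gadd45b, with 54 and 43.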
